A study of Mus musculus with 12 samples.

Results

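The comparison described here is that of Rroid2 wild-type (WT) memory precursor effector cells (MPEC) with WT short-lived effector cells (SLEC) on day 14 of an infection. It rests on 4 of the 12 RNA sequencing libraries of the series, 2 of MPEC and 2 of SLEC, which were taken by the population, genotype and day in their labels. All cells were OT-I cells, CD8 T cells with a transgenic receptor for a peptide of ovalbumin, and were sorted from the spleen of mice given Listeria monocytogenes that carries ovalbumin (LM-OVA). The matching Rroid2 knockout (KO) libraries of day 14, 2 of MPEC and 2 of SLEC, share no sample with the WT libraries and are given beside them; WT and KO SLEC of day 7 complete the series. The labels name the OT-I receptor, the Rroid2 genotype and the LM-OVA infection for every group. They give no age, sex, strain, sorting gates or number of animals per library. Whether both libraries of a group are from different animals is not stated either, so the p-values below measure the spread between libraries, which may be technical.

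After an acute infection, CD8 T cells divide into effector cells, most of which die as the pathogen is cleared, and a smaller set that lives on as memory cells. SLEC are conventionally recognised by the lectin-like receptor KLRG1 and by low CD127, the interleukin-7 receptor chain encoded by Il7r; MPEC are conventionally low for KLRG1 and high for CD127. T-bet, Blimp1, Zeb2 and Id2 are known as drivers of the effector state, and Tcf1 (encoded by Tcf7), Id3, Eomes and Foxo1 as factors of memory cells.

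The 4 WT libraries held 10951559 to 13740911 counts, and the 12 libraries of the series held 7603551 to 14026594. Cd8a was at 758 and 796 CPM (counts scaled to library size) in the MPEC libraries and at 928 and 856 in SLEC. Both genes that conventionally define the populations followed the labels. Il7r was at 760 and 998 CPM in MPEC against 28.6 and 25.6 in SLEC, a log2 difference of 5.02 ± 0.24 (standard error, SE). Klrg1 was at 1.81 and 2.54 CPM in MPEC against 152 and 132 in SLEC, a log2 difference of -6.05 ± 0.31. If their proteins set the gates, these values check the labels and are not results.

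RNA of other cells was uneven among these libraries. The summed level of 17 B cell genes was 593 and 2014 CPM in WT SLEC and 306 and 142 in WT MPEC, against 22.9 to 135 CPM in the other 8 libraries. The 10 genes of MHC class II presentation had 446 and 1733 CPM in WT SLEC and 197 and 23.6 in WT MPEC, with 12 to 59.7 elsewhere. The 13 genes of monocytes and macrophages had 93.8 and 77.3 CPM in WT SLEC, 28.9 and 22.3 in WT MPEC and 13.9 to 55.4 elsewhere. Markers of B cells and myeloid cells were thus highest in WT SLEC, B cell RNA most of all in replicate 2, where 25372 genes had a count against 17362 to 18660 in the other 3. The defining B cell genes were not at 0: Ms4a1, the gene of CD20, had 33.3 and 136 CPM in WT SLEC, 13.7 and 0 in WT MPEC, and at most 0.411 in the day 14 KO libraries. The part of this RNA in any single difference was not tested. KO values are given beside the WT values because the day 14 KO libraries had less of it than WT SLEC. It was uneven there too: the B cell genes had 119 and 135 CPM in KO MPEC and 57.5 and 25.3 in KO SLEC.

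**Figure D1:**
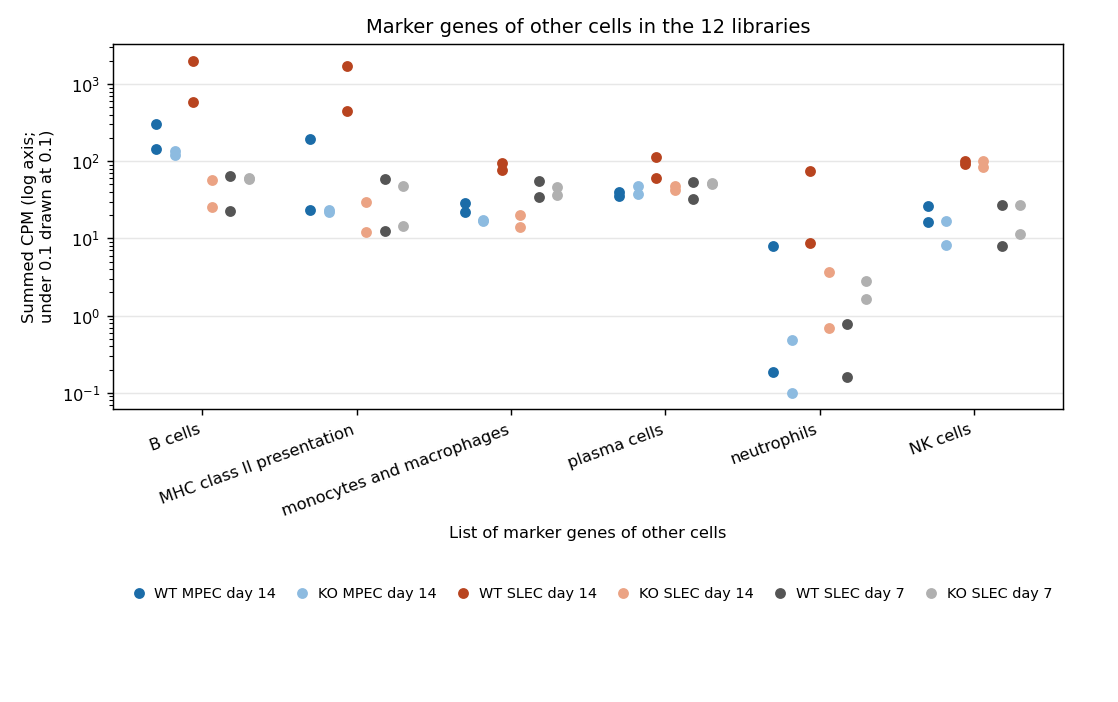
Summed CPM (log axis) of marker genes of other cells, 1 point per library and 1 column of points per group. B cell and MHC class II genes reach 2014 and 1733 CPM in a WT SLEC library of day 14, while the other 8 libraries stay at or below 135 and 59.7 CPM.

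The MPEC and SLEC transcriptomes differed in both directions. Of 14460 genes tested with edgeR's quasi-likelihood test, 529 (3.66%) were higher and 622 (4.3%) lower in WT MPEC at a Benjamini-Hochberg adjusted p under 0.05, in all 1151 or 7.96%. At an unadjusted p under 0.05 there were 3054. The median log2 difference was 1.15 among the genes higher in MPEC and -1.58 among those lower. For all 1151 genes both libraries of one population lay above both of the other, as was the case for 57.3% of all tested genes in WT and 46.7% in KO. In KO cells 419 genes (2.9%) were higher and 320 (2.21%) lower in MPEC, in all 739 or 5.11%.

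Most genes called in WT had the same direction in KO cells, which share no library with them. Of the 529 higher genes, 522 (98.7%) had the same sign in KO and 290 (54.8%) were called there too, which is 69.2% of the 419 KO calls. Of the 622 lower genes, 539 (86.7%) had the same sign and 232 (37.3%) were called, which is 72.5% of the 320. For the shares called, the background is 2.9% of tested genes with a KO call toward MPEC and 2.21% toward SLEC. A same-sign share over all tested genes is not given here, so the sign shares stand without a background and cannot be weighed against one. The median KO difference was 1.00 for the higher and -0.87 for the lower genes. Beside this stands the unequal pair of WT SLEC libraries: replicate 2 was over 2 times replicate 1 for 105 of the 622 lower genes (16.9%), 23 of the 529 higher genes (4.35%) and 7.3% of all tested genes. Of 75 tested marker genes of other cells, 21 were among the lower genes and 0 among the higher. Across the 8460 genes whose log2 CPM averaged 3 or more, the WT and KO differences had a Pearson correlation of 0.76 and a Spearman correlation of 0.61; these points are genes of the same 8 libraries, not replicates.

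The number of calls moved with single libraries. It was 414 without WT SLEC replicate 2, 655 without WT SLEC replicate 1, 519 without WT MPEC replicate 1 and 279 without WT MPEC replicate 2, and 369 with a term for B cell RNA in the model. With that term all 529 higher genes and 610 of the 622 lower genes kept their sign, while 133 of the higher and 180 of the lower stayed called. The median difference went from 1.15 to 1.14 for the higher genes and from -1.58 to -1.22 for the lower genes. The median SE grew from 0.233 to 0.366 for the higher genes and from 0.318 to 0.464 for the lower genes.

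**Figure D2:**
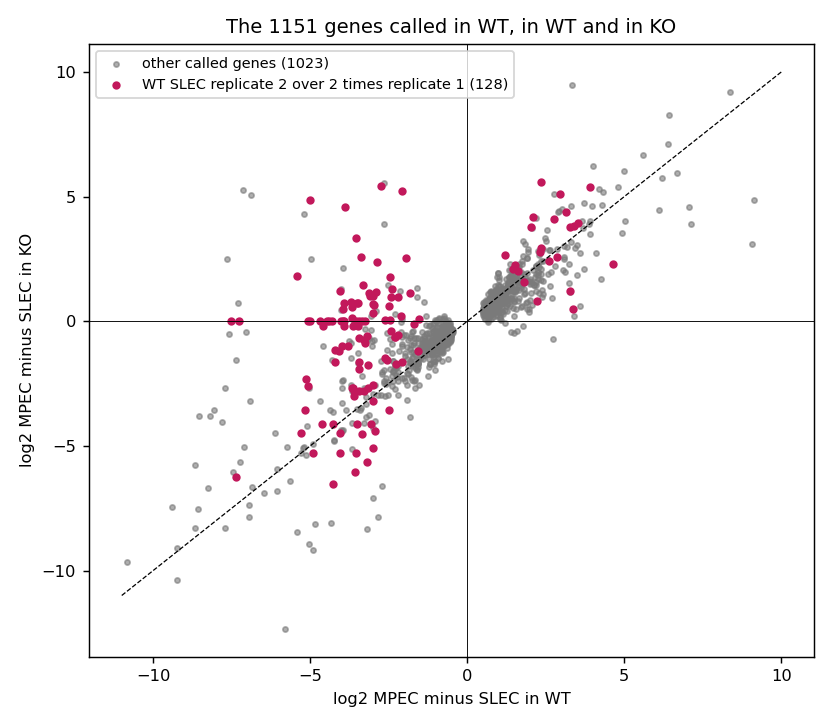
Log2 difference of MPEC from SLEC on day 14 in WT (horizontal) and in KO (vertical) for the 1151 genes called in WT; the dashed line marks equal values. Coloured points are the 128 genes for which WT SLEC replicate 2 was over 2 times replicate 1. Most of them lie left of 0, many at a KO difference near 0, and 18 of the 1151 genes had no count in the day 14 KO libraries.

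The 15 genes of that level with the largest differences toward MPEC were taken from those whose KO libraries also separated on the same side, so their KO values are a description. Dapl1, a gene of small non-cycling lymphocytes (chromosome 2, 59484653 to 59505020, GRCm38), was at 22.2 and 25.3 CPM in MPEC and at 0.221 and 0.316 in SLEC. Its log2 difference was 6.39 ± 0.52 (edgeR adjusted p = 4.4e-08), and KO libraries had 35.2 and 31.3 against 0.405 and 0 CPM. Nsg2, known as a neuronal vesicle protein gene, was at 78.3 and 103 CPM in MPEC and 1.10 and 1.33 in SLEC, a difference of 6.19 ± 0.48. Gas7, a cytoskeletal adaptor gene, was at 27.2 and 36.2 CPM in MPEC and 0.883 and 0.0633 in SLEC. The rule chose these genes for MPEC and SLEC libraries that do not overlap in WT or in KO.

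Socs3, the inhibitor of cytokine signalling that STAT3 induces, was at 30.7 and 37.1 CPM in WT MPEC and 2.06 and 2.15 in SLEC, a difference of 3.99 ± 0.44 (edgeR adjusted p = 1.8e-05). Vipr1, a receptor for vasoactive intestinal peptide, was at 47.7 and 51.9 CPM in MPEC and 5.08 and 5 in SLEC. Eya2, a transcriptional cofactor and phosphatase, was at 30.1 and 33.6 against 2.72 and 2.91 CPM. The other genes of this group were Pak6, Rflnb, Ssbp2 and Actn1, with differences of 3.30 to 4.92, beside Il7r, Tnfsf8, Il6ra, Gpr183 and Myb. Il7r may only check the labels, as said above. Of the 15, 13 were called in each of the 12 fits with 1 library left out; Actn1 reached an adjusted p of 0.17, as did Myb, without WT SLEC replicate 2, and Actn1 0.30 with the B cell term. Beyond the naming rule, Cd8a, Ms4a1, Lef1, Bhlhe40, Il6st, Il2rb, Il4ra, Ifngr2, Xcl1, Cxcr3, Prf1, Ctsd, Gzmm, Gzmk, Klrc1, Slamf7, Pdcd1, Oas1a, Isg15 and Zbp1 are named from the gene lists, chosen after seeing their values. Icos and Tnfrsf18 were likewise chosen after their values were seen.

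The largest differences toward SLEC included cytotoxic and lectin-like receptor genes. Klrg1 is among these genes and, as said above, may only check the labels. Gzma, the gene of the protease granzyme A (chromosome 13, 113093825 to 113100981), was at 990 and 987 CPM in SLEC and 12.6 and 9.61 in MPEC, 89.0-fold lower, with a log2 difference of -6.46 ± 0.35 (edgeR adjusted p = 3.8e-07). KO SLEC had 806 and 775 CPM and KO MPEC 4.52 and 8.72. Cdc20b, a homologue of a cell division gene, had no count in either MPEC library of WT or KO, and 17.7 and 21.1 CPM in WT SLEC. Setting the MPEC group at 3 counts in all, the floor used here, made it at least 154-fold lower in WT MPEC. Miat, a long non-coding RNA, was at 26.8 and 41.7 CPM in SLEC and 0.906 and 0 in MPEC.

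Further genes of this group act in signalling and adhesion. Kcnj8, a subunit of ATP-sensitive potassium channels, was at 146 and 136 CPM in SLEC and 10.1 and 7.25 in MPEC, a difference of -4.00 ± 0.50. Notch3, a Notch receptor, was at 46.9 and 38.8 CPM in SLEC and 0.604 and 0.942 in MPEC, with no count in KO MPEC. Srcin1, an inhibitor of Src kinase, was at 111 and 181 against 4.23 and 4.05 CPM, and Jup, the gene of plakoglobin, was at 16.9 and 14.0 against 0.302 and 0.754. Cybb, a subunit of the phagocyte oxidase, stood apart from these: its WT SLEC libraries had 24.9 and 64.8 CPM, WT MPEC 7.63 and 0, and no KO library of day 14 exceeded 2.12. These 15 genes were chosen by the same rule, KO separation included, and 10 were called in every fit with 1 library left out. Without WT MPEC replicate 2 the adjusted p was 0.081 for Klre1, 0.065 for Srcin1, 0.16 for Notch3 and 0.16 for Gpx8; Cybb was at 0.07 without WT SLEC replicate 2, 0.077 without KO MPEC replicate 1 0.52 with the B cell term and 0.27 by DESeq2, and Klre1 was at 0.060 with that term.

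**Figure D3:**
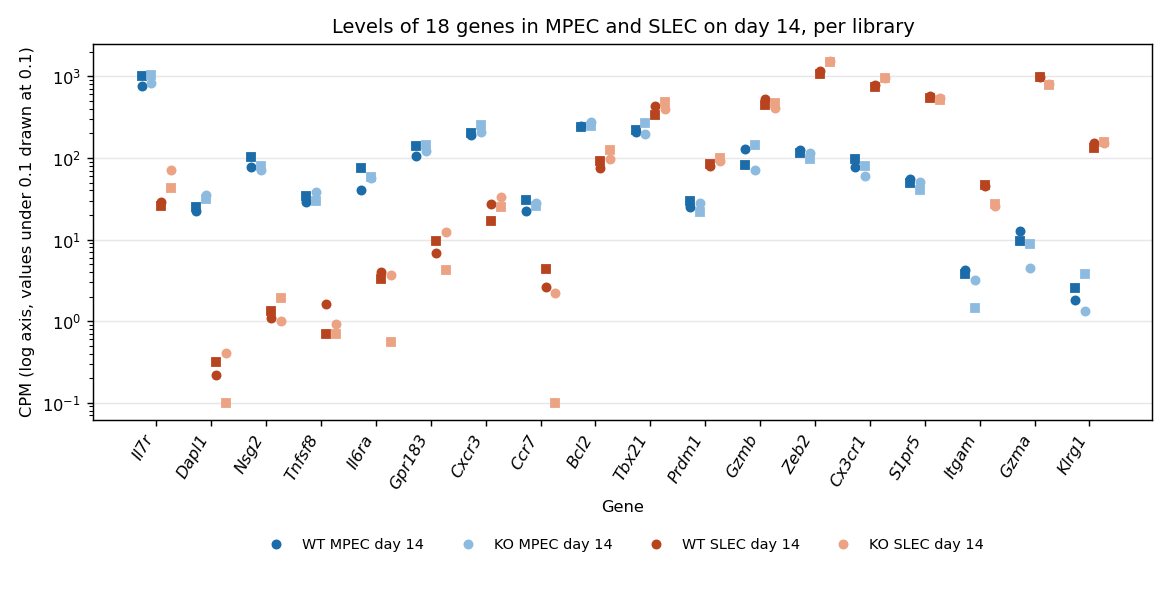
Level in CPM (log axis) of 18 genes in the 8 day 14 libraries, circles for replicate 1 and squares for replicate 2. From Il7r to Bcl2 the MPEC libraries lie above the SLEC libraries, and from Tbx21 to Klrg1 below; in WT the distance is smallest for Tbx21 and Bcl2, and KO libraries lie on the same side as WT for each gene shown.

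Factors of memory and of effector cells were called in opposite directions, and some of the best known were not called. Of 12 tested memory transcription factors 4 were higher in WT MPEC and 0 lower (median log2 difference 0.62; -0.005 over all tested genes), and of 12 effector factors 0 were higher and 5 lower (median -0.50). Beside these and the list counts below stand the shares of all tested genes, 3.66% called higher and 4.3% called lower. Myb, which maintains stem-like T cells, was at 32.6 and 30.4 CPM in MPEC and 2.87 and 2.03 in SLEC (edgeR adjusted p = 0.02). Id3, an inhibitor of E proteins, was low throughout, at 3.93 and 6.41 CPM in MPEC and 0.147 and 1.71 in SLEC, a difference of 2.35 ± 0.64. Foxo1, which drives Il7r, was at 174 and 231 CPM in MPEC and 103 and 111 in SLEC, a difference of 0.92 ± 0.15. Zeb1, a repressor with a known role in memory, was at 96.1 and 102 against 60.6 and 57.3 CPM.

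Tcf7 was at 911 and 1142 CPM in MPEC and 214 and 181 in SLEC, and KO MPEC had 1015 and 1142 against 446 and 183. Its WT libraries did not overlap and its log2 difference was 2.38 ± 0.66, yet its edgeR adjusted p was 0.09 and it was not called. DESeq2 gave Tcf7 an adjusted p of 0.0082, and edgeR called it when only the WT day 14 libraries were fitted. Eomes, at 165 and 171 against 71.8 and 68.6 CPM (1.26 ± 0.53, edgeR adjusted p = 0.24), and Lef1, at 240 and 291 against 235 and 178 (0.36 ± 0.33), were not called either. Klf2, a driver of S1pr1, was at 395 and 457 CPM in MPEC and 620 and 563 in SLEC. Its WT difference was -0.47 ± 0.16, with an edgeR adjusted p of 0.082 and a DESeq2 adjusted p of 0.044. In KO cells edgeR called it, with a difference of -0.85.

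Among effector factors, Zeb2 was at 126 and 116 CPM in MPEC and 1166 and 1076 in SLEC, a difference of -3.21 ± 0.24 (edgeR adjusted p = 1.6e-06). Prdm1, the gene of Blimp1, was at 24.8 and 29.7 CPM in MPEC and 80.0 and 84.4 in SLEC, 3.01-fold lower. Tbx21, the gene of T-bet, differed less, at 210 and 220 against 428 and 336 CPM (-0.83 ± 0.18). Bhlhe40, a repressor with roles in effector metabolism, was at 67.5 and 72.6 against 388 and 291 CPM, and Rora, a nuclear receptor, at 121 and 151 against 248 and 231. All 5 were called in KO cells. Id2, the inhibitor of E proteins on which SLEC depend, was not called, with 357 and 325 CPM in MPEC and 350 and 303 in SLEC (0.06 ± 0.18). That SE allows a small difference in either direction.

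The E proteins, which Id2 and Id3 bind, split. Tcf12 was higher in MPEC (161 and 174 against 108 and 104 CPM), Tcf3 was not called (169 and 171 against 201 and 190), and Tcf4 was lower (7.86 and 2.73 against 15.8 and 37.1, edgeR adjusted p = 0.0061). Tcf4 is known as abundant in B cells, was over 2 times higher in the SLEC library with the most B cell RNA, and had an adjusted p of 0.10 without that library and 0.54 with the B cell term; KO SLEC had 13.2 and 11.5 CPM against 4.41 and 3.26 in KO MPEC. Among these called transcription factors, leaving out 1 library ended the call of Id3 (adjusted p = 0.26 without WT MPEC replicate 2), of Foxo1 (0.05031), Rora (0.11), Bhlhe40 (0.081) and Tcf12 (0.11) without a WT MPEC library, of Tbx21 (0.11) without WT SLEC replicate 1, and of Zeb1 (0.12) without WT SLEC replicate 2. The B cell term also ended the calls of Foxo1 (0.13), Zeb1 (0.19), Id3 (0.38) and Tcf12 (0.34). DESeq2 gave Id3 an adjusted p of 0.067, and Tcf12 was not called in KO (edgeR adjusted p = 0.20).

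Of 22 tested cytokine receptors, 5 were higher, 3 lower and 14 not called in WT MPEC (median 0.19), while 7.96% of all tested genes were called. Il7r, which may only check the labels, is among the 5. Il6ra, the binding chain for interleukin-6, was at 40.7 and 74.7 CPM in MPEC and 4.05 and 3.29 in SLEC, a difference of 3.97 ± 0.36 (edgeR adjusted p = 2.2e-06). Il6st, the signalling chain gp130, was at 74.6 and 83.9 against 40.0 and 31.5 CPM. Il2rb, the chain shared by interleukin-2 and interleukin-15, was at 593 and 679 against 395 and 297, and Il4ra was at 127 and 140 against 68.3 and 84.4. The calls of Il2rb (edgeR adjusted p = 0.18 without WT SLEC replicate 2) and Il4ra (0.14 without WT SLEC replicate 1) depended on single libraries. With the B cell term the adjusted p was 0.064 for Il6st, 0.11 for Il2rb and 0.25 for Il4ra.

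A chain each of the receptors of interleukin-12 and interleukin-18, cytokines that drive interferon-gamma, was called lower. Their partner chains are not given here. Il18rap was at 347 and 310 CPM in MPEC and 1125 and 1049.7 in SLEC, 3.31-fold lower (-1.73 ± 0.20), and Il12rb2 was at 35.8 and 32.1 against 119 and 90.9 CPM. Both had nearly the same difference in KO cells, -1.82 and -1.67. Ifngr2 was called lower in WT (0.151 and 0.377 against 3.46 and 9.05 CPM), but no KO library of day 14 had more than 0.103 CPM, and its edgeR adjusted p was 0.28 with the B cell term and 0.051 without WT MPEC replicate 1.

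Cytokine genes were few. Of 13 tested, 3 were higher and 2 lower in WT MPEC. Tnfsf8, the ligand of CD30, was at 28.6 and 34.4 CPM in MPEC and 1.62 and 0.696 in SLEC, 27.2-fold higher (edgeR adjusted p = 7.6e-08). Ltb, a lymphotoxin chain, was at 189 and 185 against 63.2 and 68.6 CPM. Xcl1, a chemokine for cross-presenting dendritic cells, was at 3.02 and 1.13 CPM in MPEC and was nearly absent from SLEC, with 0.0736 and 0. The chemokines Ccl3 and Ccl4 were lower, at 3.17 and 3.02 against 14.7 and 11.8 CPM and at 8.08 and 7.54 against 31.6 and 20.3. In KO cells neither was called (Ccl3 -0.65, Ccl4 -1.43). The call of Ccl4 was lost without WT MPEC replicate 2 (edgeR adjusted p = 0.16) and that of Xcl1 without WT MPEC replicate 1 (0.20). Xcl1 was at 0.10 with the B cell term and 0.072 by DESeq2.

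Homing receptors were called in both directions. Of 13 tested, 4 were higher and 2 lower in WT MPEC. Gpr183, the oxysterol receptor that places cells at follicle borders, was at 105 and 140 CPM in MPEC and 6.77 and 9.62 in SLEC, a difference of 3.89 ± 0.30 (edgeR adjusted p = 1e-06). Cxcr3, a receptor for interferon-induced chemokines, was at 192 and 204 CPM in MPEC and 27.2 and 17.1 in SLEC, 8.95-fold higher. Ccr7, the receptor for lymph node entry, was at 22.4 and 30.4 against 2.65 and 4.37 CPM, and was not called by DESeq2 (adjusted p = 0.19).

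Cx3cr1, the fractalkine receptor of effector cells, was at 77.7 and 97.3 CPM in MPEC and 796 and 748 in SLEC, 8.82-fold lower (-3.14 ± 0.20, edgeR adjusted p = 1.7e-08). S1pr5, a sphingosine phosphate receptor, was at 55.6 and 49.4 against 570 and 549 CPM, 10.7-fold lower. Among 14 integrins and adhesion genes 2 were higher and 2 lower. Itgam, the CD11b chain, was at 4.23 and 3.77 CPM in MPEC and 45.1 and 46.3 in SLEC, and KO cells had 3.18 and 1.44 against 25.9 and 26.9. Its partner Itgb2 was at 972 and 922 against 1653 and 1526 CPM. Cd44, a marker of antigen-experienced cells, was higher in MPEC at 169 and 199 against 112 and 97.5. Itgae, the CD103 chain, was also called higher (5.36 and 9.33 against 1.47 and 2.28 CPM, edgeR adjusted p = 0.049), but its KO difference was 0.48, and leaving out WT MPEC replicate 2 gave an adjusted p of 0.39 for it, 0.14 for Cd44 and 0.11 for Itgb2. With the B cell term Itgae was at 0.60 and Cd44 at 0.22, and DESeq2 gave Itgae 0.14.

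Cytotoxic genes were mostly lower in MPEC where they were called. Of 15 tested, 1 was higher and 6 lower. Gzmb, the gene of granzyme B, was at 127 and 82.6 CPM in MPEC and 530 and 442 in SLEC, a difference of -2.21 ± 0.33 (edgeR adjusted p = 0.0034). Prf1, the pore-forming perforin, was at 180 and 185 against 327 and 279, and Fasl at 36.3 and 26.1 against 67.3 and 65.8. Serpinb9, the inhibitor of granzyme B, was at 49.8 and 43.4 against 100 and 83.9 CPM. The protease gene Ctsd was at 240 and 267 against 484 and 375. The granzymes thus spanned differences from -6.46 for Gzma to 1.48 for Gzmm (43.8 and 47.1 against 16.9 and 15.8 CPM), with Gzmk at 39.0 and 40.8 against 39.5 and 35.6 (0.09 ± 0.19). Leaving out WT MPEC replicate 2 gave adjusted p-values of 0.068 for Serpinb9 and Fasl, WT SLEC replicate 1 one of 0.15 for Prf1 and 0.17 for Ctsd, and WT SLEC replicate 2 one of 0.11 for Gzmm; with the B cell term the value was 0.074 for Gzmb, 0.15 for Serpinb9, 0.058 for Prf1 and 0.15 for Gzmm.

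Gzma lies on chromosome 13 among genes with the same direction. From Cdc20b to the end of Gzmk, 113035111 to 113225908 in GRCm38, 5 genes were tested and 4 were called, all lower in WT MPEC: Cdc20b, Gpx8, Gzma and Esm1; this neighbourhood was singled out after the values were seen. Gpx8, a glutathione peroxidase of the endoplasmic reticulum, had no count in MPEC and 4.42 and 3.86 CPM in SLEC, and was at least 32.9-fold lower. Esm1, the gene of the secreted proteoglycan endocan, was at 3.93 and 3.39 CPM in MPEC and 74.3 and 70.0 in SLEC, 19.7-fold lower (-4.29 ± 0.22, edgeR adjusted p = 1.5e-09). Gzmk, between Gzma and Esm1 by its RefSeq start, was the member that was not called. Gpx8 lies within Cdc20b and Esm1 within the GENCODE model of Gzmk, each on the opposite strand; the sources used here do not give the strand setting of the counting, and reads of these pairs may not be fully told apart.

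The 250 bases before the RefSeq starts of Gzma, Gzmk and Esm1 (GRCm38.p6, 5′ to 3′ on the gene's strand) are shown because these neighbours differ so much in response. Capitals mark the letters CTTTGA, those bound by TCF and LEF factors, and GGTGTGA, those bound by T-box factors, searched on both strands. The windows lie at chr13:113100982-113101231 (minus), chr13:113180966-113181215 (minus) and chr13:113209409-113209658 (plus), and overlap 0 GENCODE exons.
Gzma: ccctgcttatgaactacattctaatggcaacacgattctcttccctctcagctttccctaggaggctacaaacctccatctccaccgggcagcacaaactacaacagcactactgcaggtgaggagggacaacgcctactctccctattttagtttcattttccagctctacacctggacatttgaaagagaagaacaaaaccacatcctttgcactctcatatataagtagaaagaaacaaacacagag
Gzmk: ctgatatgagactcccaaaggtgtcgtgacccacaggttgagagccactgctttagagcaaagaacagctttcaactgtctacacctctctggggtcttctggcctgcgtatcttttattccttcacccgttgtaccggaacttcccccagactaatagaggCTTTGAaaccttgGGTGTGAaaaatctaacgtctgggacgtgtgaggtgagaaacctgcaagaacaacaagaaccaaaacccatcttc
Esm1: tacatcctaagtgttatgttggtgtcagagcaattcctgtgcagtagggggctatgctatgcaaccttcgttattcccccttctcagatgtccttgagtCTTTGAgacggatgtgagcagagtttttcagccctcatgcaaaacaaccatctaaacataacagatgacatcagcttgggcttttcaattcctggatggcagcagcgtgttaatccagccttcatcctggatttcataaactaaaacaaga

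Gzma had neither set of letters in this window, Esm1 had CTTTGA and Gzmk had both. Over all tested genes 10.9% of 12106 such windows held CTTTGA, against 12.3% of 471 windows of genes higher in MPEC and 10.3% of 659 windows of genes lower. GGTGTGA was in 2.87%, 3.82% and 2.58%. These shares are a description of letters, not of binding.

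Killer lectin-like receptors, which bind MHC class I and related ligands on target cells, had 0 members higher and 6 lower in WT MPEC among 12 tested (median log2 difference -2.11). Klrg1, which may only check the labels, belongs to this family and was called lower. Klre1, an inhibitory receptor subunit, was at 5.06 and 1.60 CPM in MPEC and 115 and 126 in SLEC, and at 3.18 and 1.82 against 57.1 and 34.2 in KO. Klrc1, the gene of NKG2A, was at 202 and 235 against 429 and 395 CPM, a smaller difference of -0.91 ± 0.21, with an adjusted p of 0.13 without WT MPEC replicate 1. Klrd1, the CD94 partner of NKG2 proteins, was not called, at 90.3 and 76.5 against 109 and 129 CPM. Klrb1c, the gene of NK1.1, was at 15.1 and 25.8 against 78.6 and 93.5 CPM and had an edgeR adjusted p of 0.16. The summed level of 5 NK cell marker genes was 91.2 and 99.8 CPM in WT SLEC and 16.5 and 26.5 in WT MPEC. It was of like size in KO SLEC, at 102 and 85.1, and Ncr1, a defining NK gene, had 4 counts over the 4 WT libraries.

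The Ly49 receptors of the same family were the longest uninterrupted run of genes with 1 direction. Between 130043731 and 130337574 of chromosome 6, all 8 tested genes were lower in WT MPEC: Klra4, Klra8, Klra14-ps, Klra9, Klra7, Klra10, Klra13-ps and Klra3, a group described after its values were seen. Klra9 was at 73.5 and 40.5 CPM in SLEC and had 2 counts over both MPEC libraries. Klra3 was at 17.5 and 13.5 CPM in SLEC and had 1 count in MPEC. Klra8, Klra7 and Klra10 had no MPEC count and were at least 58.9-fold, 18.2-fold and 34.6-fold lower. In KO cells Klra4, Klra8, Klra7 and Klra10 were not called (edgeR adjusted p = 0.17, 0.17, 0.82 and 0.33). Klra14-ps, Klra9, Klra13-ps and Klra3 were called lower there. KO SLEC had 0.101 and 0 CPM of Klra7 and 0.911 and 0.137 of Klra10. KO SLEC had 16.3 and 11.8 CPM of Klra9 and 5.06 and 8.11 of Klra3, below the WT SLEC levels; Klra4 and Klra7 had adjusted p-values of 0.13 and 0.11 without WT MPEC replicate 1, and for no gene of the cluster did the test of the WT against the KO difference pass.

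These genes are near copies of each other, so counts may be split among them and a value for a single one is uncertain. The 250 bases before the starts of Klra3 (chr6:130337627-130337876, minus) and Klra9 (chr6:130193113-130193362, minus), also clear of exons, show how close they are: 83.6% of 269 aligned positions were identical, and the capitals mark the longest run they share, of 75 bases.
Klra3: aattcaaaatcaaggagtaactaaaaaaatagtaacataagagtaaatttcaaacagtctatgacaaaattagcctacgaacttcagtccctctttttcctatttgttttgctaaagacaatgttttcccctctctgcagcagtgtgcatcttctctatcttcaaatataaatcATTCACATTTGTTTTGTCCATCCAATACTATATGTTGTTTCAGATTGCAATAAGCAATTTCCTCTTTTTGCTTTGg
Klra9: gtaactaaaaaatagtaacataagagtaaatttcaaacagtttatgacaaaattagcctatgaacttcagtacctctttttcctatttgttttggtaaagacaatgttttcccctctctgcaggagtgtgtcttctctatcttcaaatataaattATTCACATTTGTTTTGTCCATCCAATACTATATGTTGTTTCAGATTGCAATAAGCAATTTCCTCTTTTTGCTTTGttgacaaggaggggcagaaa

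**Figure D4:**
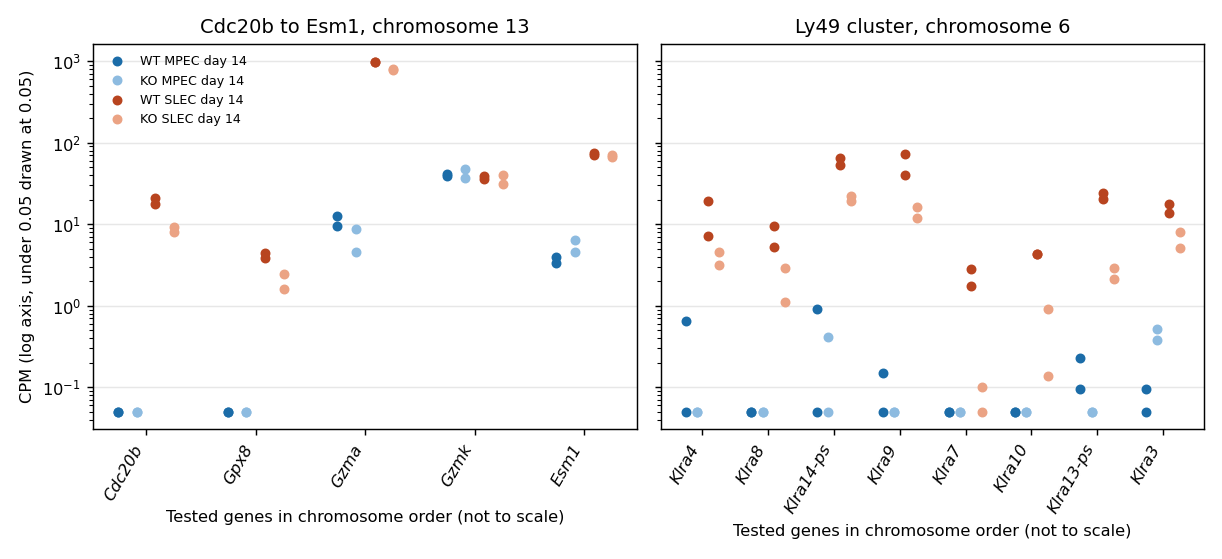
CPM (log axis) of the tested genes of both neighbourhoods in the 8 day 14 libraries, genes in chromosome order and spacing not to scale. On chromosome 13 Gzmk lies at 31.1 to 47.4 CPM in every library while its neighbours separate the populations, and in the Ly49 cluster no MPEC library exceeds 0.906 CPM.

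Of 14 tested BCL2 family genes 12 were not called (median log2 difference -0.18). With 7.96% of all tested genes called, a list this short would hold few calls in any case. Bcl2, the survival factor sustained by interleukin-7, was the member called higher, at 245 and 240 CPM against 75.2 and 91.8 in SLEC (1.54 ± 0.24, edgeR adjusted p = 0.0017). Pmaip1, the gene of the death factor Noxa, was the member called lower, at 35.7 and 35.5 against 86.0 and 73.7 CPM. Of 14 costimulatory receptors 7 were higher and 1 lower (median 0.76). Crtam was at 108 and 108 CPM in MPEC and 21.7 and 23.5 in SLEC, and Slamf6, a marker of stem-like cells, at 141 and 150 against 23.0 and 40.6. Cd27 was at 178 and 179 against 78.8 and 54.6, and Cd28 at 208 and 213 against 104 and 91.3. Slamf7 was the lower member, at 237 and 225 against 381 and 378 CPM. The costimulatory genes Icos and Tnfrsf18 were called higher (0.72 and 0.78, edgeR adjusted p = 0.030 and 0.049). With the B cell term their edgeR adjusted p was 0.58 and 0.15, and DESeq2 gave Tnfrsf18 0.078.

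Inhibitory receptors were called in both directions: of 12 tested with Tox, 4 were higher and 2 lower. Tox, a chromatin regulator of persistent T cells, was at 23.9 and 43.9 CPM in MPEC and 9.27 and 5.63 in SLEC (2.18 ± 0.33, edgeR adjusted p = 0.00045), and Pdcd1, the gene of PD-1, at 13 and 24.7 against 5.96 and 7.21. Entpd1, the ectoenzyme CD39, was lower, at 12.7 and 8.48 against 52.3 and 48.0 CPM. Havcr2, the gene of TIM-3, was at 3.25 and 2.92 against 27.3 and 12.2 CPM and was not called (edgeR adjusted p = 0.13). DESeq2 gave Havcr2 an adjusted p of 0.011. Of 18 T cell receptor signalling genes, Cd3d (287 and 283 against 180 and 139 CPM) and Cd5 (245 and 293 against 171 and 175) were higher and 0 were lower. Such a count is not far from the 7.96% of all tested genes that were called. The adjusted p of Pdcd1 was 0.35 and that of Cd5 0.28 without WT MPEC replicate 2, that of Cd3d was 0.22 without WT SLEC replicate 2, and that of Slamf7 0.13 without WT MPEC replicate 2; with the B cell term Tox had 0.16, Pdcd1 0.19, Cd3d 0.44 and Cd5 0.52.

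Interferon response genes, which type I interferon induces, were higher in MPEC where they were called, in 7 of 19 tested, with 0 lower (median 0.76). Rsad2, the gene of the antiviral enzyme viperin, was at 12.2 and 13.9 CPM in MPEC and 1.84 and 3.48 in SLEC (2.26 ± 0.42, edgeR adjusted p = 0.0028). Oasl2 was at 10.3 and 10.5 against 1.25 and 3.42 CPM, Ifit1 at 27.9 and 23.4 against 8.61 and 10, and Bst2 at 16.5 and 20.1 against 9.13 and 8.04. The other called members were Oas1a, Isg15 and Zbp1. Stat2, which carries the signal, pointed the other way without being called (52.4 and 40.7 against 70.9 and 72.1 CPM, -0.61 ± 0.19). DESeq2 gave Stat2 an adjusted p of 0.04968. In KO cells 2 of the 19 were called higher, with a median of 0.49. Rsad2 alone of the 7 was called in every fit with 1 library left out; Oasl2 reached an adjusted p of 0.12 without WT SLEC replicate 1, Ifit1 0.093 without WT MPEC replicate 1, and Bst2 0.24 without WT MPEC replicate 2. Oas1a (0.26 without WT MPEC replicate 1), Isg15 (0.35) and Zbp1 (0.28 without WT SLEC replicate 1) also lost their calls, Isg15 without WT MPEC replicate 2. With the B cell term the adjusted p was 0.053 for Oasl2, 0.099 for Ifit1, 0.33 for Bst2, 0.81 for Isg15 and 0.21 for Oas1a, and DESeq2 gave 0.071 for Isg15 and 0.088 for Oas1a.

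Proliferation genes were not called. Of 21 tested genes of G2 and M phase and 20 of S phase, 0 were called in WT or in KO. Of all tested genes 7.96% were called in WT and 5.11% in KO, and lists this short would hold few calls at those shares. The median WT difference was -0.56 for the first list and -0.09 for the second, with medians of 0.17 and 0.14 in KO. Cdk1 was at 2.11 and 4.24 CPM in MPEC and 6.11 and 6.45 in SLEC. Of 17 glycolysis genes 2 were higher and 1 lower. Pdk1, the kinase that keeps pyruvate out of mitochondria, was at 96.1 and 89.6 CPM in MPEC and 15.6 and 23.1 in SLEC, 4.80-fold higher (edgeR adjusted p = 1.5e-06). Gpi1 was at 222 and 244 against 137 and 141 CPM, and the glucose transporter Slc2a3 was lower, at 106 and 107 against 180 and 151. Leaving out WT MPEC replicate 2 gave Gpi1 an adjusted p of 0.10 (0.22 with the B cell term), and leaving out WT SLEC replicate 1 gave Slc2a3 one of 0.26.

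Genes of the mitochondrial genome were called in one direction, a group also described after its values were seen. Of its 13 tested genes 7 were called, all higher, 6 of them coding for proteins of the respiratory chain and the other the ribosomal RNA mt-Rnr1. mt-Nd5 was at 1603 and 2110 CPM in MPEC and 946 and 1043 in SLEC (0.90 ± 0.18, edgeR adjusted p = 0.0038), and mt-Co1 at 2322 and 3076 against 1659 and 1575. The share of mitochondrial ribosomal RNA, often read as a sign of library quality, was 12.4% and 13.2% of counts in WT MPEC and 9.08% and 8% in WT SLEC, and its part in these differences was not tested. In KO cells mt-Nd5 differed by 0.53 and mt-Co1 by 0.34, neither called. Without WT MPEC replicate 2 the adjusted p was 0.11 for mt-Nd5 and 0.36 for mt-Co1. With the B cell term none of the 6 protein-coding genes was called, with adjusted p-values from 0.20 for mt-Nd5 to 0.66 for mt-Co1.

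**Figure D5:**
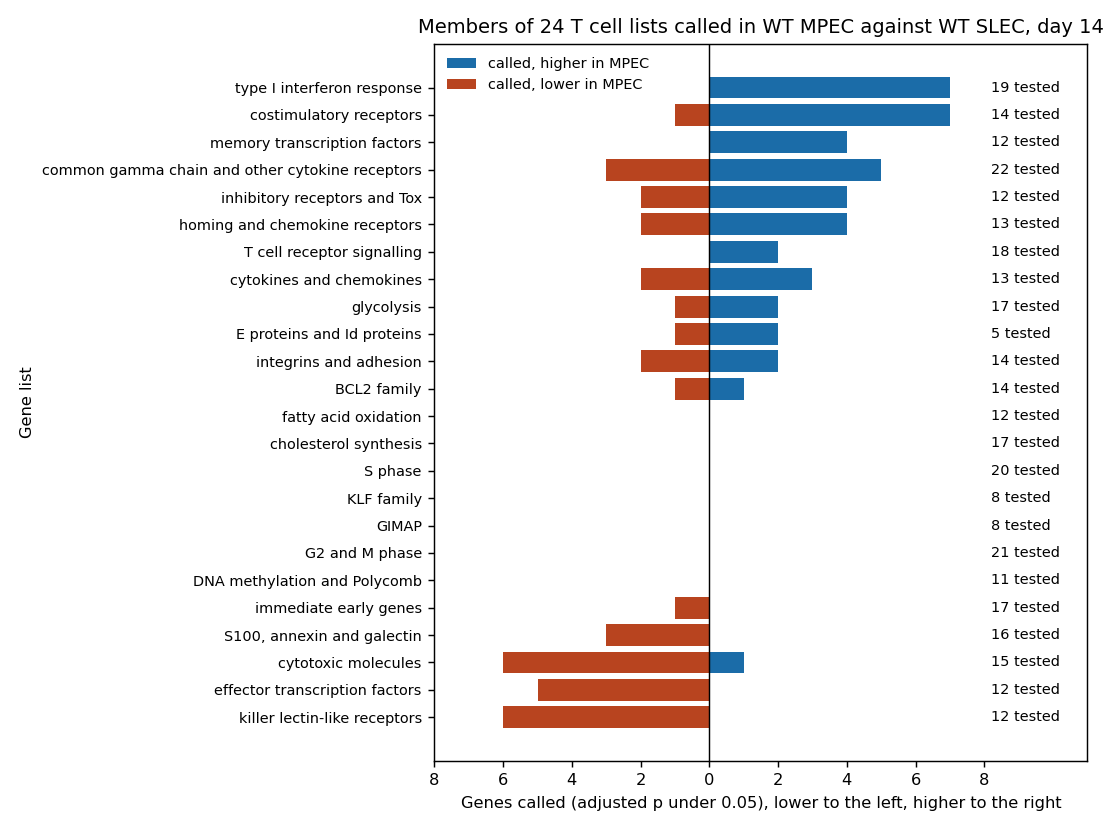
Number of genes called lower (left) and higher (right) in WT MPEC than in WT SLEC for each of 24 gene lists of T cell biology, with the number tested at the right edge. Interferon response, costimulatory receptors and memory factors extend to the right, with 7, 7 and 4 genes, and lectin-like receptors, effector factors and cytotoxic molecules to the left, with 6, 5 and 6.

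The remaining lists held few calls. Of 16 S100, annexin and galectin genes, 0 were higher and 3 lower, among them Lgals1, the gene of galectin-1, at 178 and 186 CPM in MPEC and 406 and 359 in SLEC (-1.07 ± 0.18, edgeR adjusted p = 0.0013). Of 17 immediate early genes, Egr3 was called, at 4.46 and 2.73 against 10.6 and 11.6 CPM, while KO SLEC had 1.42 and 0.962; without WT MPEC replicate 2 its adjusted p was 0.25, with the B cell term 0.51 and by DESeq2 0.11. No gene was called in the lists of KLF factors (8), fatty acid oxidation (12), cholesterol synthesis (17), GIMAP GTPases (8) and DNA methylation and Polycomb (11). Over all 24 lists 43 of 338 distinct genes, Il7r among them, were higher and 36 lower, and 58 of these 79 were called in the same direction in KO cells. The share of called genes in the lists, 23.4%, stands beside 7.96% for all tested genes, and the lists were chosen with results of these data known. The lectin-like receptor Klrg1, called lower, may like Il7r only check the labels.

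Some genes of low level were absent from SLEC. They lie outside the naming rule and were chosen after their values were seen. Cdh1, the gene of E-cadherin, had no count in WT SLEC and 5.97 and 6.03 CPM in WT MPEC, at least 58.8-fold higher, with 7.19 and 7.00 CPM in KO MPEC and 0 and 0.55 in KO SLEC. Slc16a5, a monocarboxylate transporter, also had none in WT SLEC and 4.76 and 6.78 CPM in MPEC, at least 56.5-fold higher. Gpr15, a receptor for homing to the colon, had 3.02 and 4.15 CPM in WT MPEC, 2.77 and 9.78 in KO MPEC and no count in SLEC of either genotype; without WT SLEC replicate 2 its edgeR adjusted p was 0.081, and with the B cell term 0.21. In such bulk libraries fewer cells with a transcript and less transcript per cell cannot be told apart.

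No gene passed the test of whether the difference between MPEC and SLEC itself differed between WT and KO. The edgeR test called 0 of 14460 genes (0%) and DESeq2 called 0, and 612 genes (4.23%) had an unadjusted edgeR p under 0.05. Of the 6 genes named for the smallest p (log2 CPM of 3 or more on average, predicted genes and pseudogenes left out), Sntb1, an adaptor of the dystrophin complex, was at 60.3 and 67.8 CPM in WT MPEC and 17.7 and 20.1 in WT SLEC, and at 61.0 and 70.7 against 41.8 and 44.1 in KO. Tnf was at 14.1 and 9.89 against 5.59 and 7.47 CPM in WT (0.88) and at 15.9 and 12.8 against 1.82 and 1.24 in KO (3.18). D1Ertd622e, a gene without a settled function, was lower in MPEC by -0.61 in WT and -1.53 in KO, and its WT adjusted p was 0.065 with the B cell term. Cxcr5, the receptor for follicle entry, was at 11 and 3.58 against 17.1 and 46.6 CPM in WT and 6.16 and 3.45 against 0 and 0.275 in KO, and its WT difference of -2.09 was 0.14 with the B cell term. All 6, Fuca1 and Syvn1 included, had an adjusted p of 1.

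SLEC of day 7 were on the side of day 14 SLEC for Il7r, Dapl1, Klrg1, Gzma, Gzmb, Tcf7 and Bcl2, with other levels. Not all genes above were. WT SLEC of day 7 had 4.69 and 29.9 CPM of Myb, against 2.87 and 2.03 in SLEC and 32.6 and 30.4 in MPEC of day 14. For mt-Nd5 day 7 SLEC had 1693 and 1531 CPM, against 946 and 1043 in SLEC and 1603 and 2110 in MPEC of day 14. WT SLEC of day 7 had 14.1 and 18.7 CPM of Il7r, 0.397 and 0 of Dapl1 and 321 and 212 of Klrg1. Gzma was at 3660.4 and 2031 CPM on day 7 and 990 and 987 on day 14, and Gzmb at 973 and 1455 against 530 and 442. Tcf7 was at 81.1 and 33.4 CPM on day 7, 214 and 181 in SLEC of day 14 and 911 and 1142 in MPEC of day 14. Bcl2 had the same order, with 22.6 and 30.6, then 75.2 and 91.8, then 245 and 240 CPM. These levels of day 7 are given without a test.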

How the data were processed

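RNA of sorted OT-I cells was sequenced from stranded SMART-Seq libraries, 12 in 6 groups of 2. The deposited values were raw whole-number counts. To make them the authors used bcl2fastq, STAR 2.6.1a and the GRCm38 build, as the submitters' processing notes list, and the counting program, annotation and strand setting were not found in the labels. Of 55421 genes, 55154 identifiers (99.5%) were in the GENCODE table, and 27 symbols were restored from it. Libraries held 7603551 to 14026594 counts.

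All 12 libraries were fitted together with edgeR 4.0.16 (R 4.3.3, TMM scaling, filterByExpr, robust quasi-likelihood, 1 coefficient per group), which left 14460 genes and 6 residual degrees of freedom (median prior 11.9). A call means an adjusted p under 0.05 (Benjamini-Hochberg, over all tested genes); adjusted p-values in the text are from this edgeR test. DESeq2 1.42.0, other scalings and filters, a replicate block, a B cell term and each library left out were alternatives. Tested on simulated data for the WT comparison with 14460 genes and 200 changed, the fit recovered 40.3% at 2-fold, 65.7% at 4-fold and 81.8% at 8-fold.

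Genes were named by a rule: the 15 largest called differences per direction that KO libraries shared, the 6 largest toward SLEC, up to 4 called and 2 other members per list, fixed regulators, and the 6 smallest p-values for the genotype difference. Members and lists were chosen with earlier results of these data known. Promoter windows are from RefSeq (GRCm38.p6), with 361 of 529 higher and 471 of 622 lower genes matched.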

Additional observations from a re-analysis of the deposited data

How the results depend on the processing

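The 1151 WT calls became 1899 when the model held only the WT day 14 libraries and 369 with the B cell term, and ranged from 279 to 1520 over the fits without 1 library. The higher genes became 973 and 157 under those settings (165 to 730 without 1 library), and the lower genes 212 with the B cell term (114 to 804). In KO, the 739 calls became 283 with that term (253 to 993), the higher genes 166 (132 to 540) and the lower genes 117 (121 to 453), with 514 lower by DESeq2. The genotype difference had 0 calls, 23 with no filter on low counts (7 with a higher and 16 with a lower effect in WT), and 0 to 3 without 1 library, all 3 with a lower effect. Of the called genes that were refitted one by one, Cxcr5 and Cd79b changed sign, both with the B cell term, to 0.14 and 0.29. Of those not called, Lef1 (-0.48), Cdt1 (0.23), Gins2 (1.25) and Ccnb2 (0.43) changed sign with that term, Id2 (-0.04) without WT SLEC replicate 2 and without WT MPEC replicate 1, and Cd3e (0.12) without WT SLEC replicate 1. The cause was not tested.

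The labels do not say whether libraries with the same replicate number share an animal or a day. The correlation of replicate differences between WT MPEC and WT SLEC was -0.096, which cannot decide this. With the replicate block there were 1143 WT calls, 1077 of them among the 1151. DESeq2 gave 1073 WT calls. With 2 libraries per group, a difference of 2-fold often went uncalled in simulation, so a gene that was not called is not shown to be alike.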
